A study of Mus musculus with 6 samples.

Results

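Of the 27418 barcodes in 6 single-cell libraries of mouse back skin, 1143 were venous endothelial cells (ECs) by the rule used here. Barcodes with 200 to 5000 detected genes and under 10% mitochondrial unique molecular identifiers (UMIs, each standing for 1 captured transcript) were kept, 20941 in all, and 12093 of these had at least 1 Pecam1 UMI and no Ptprc UMI. The venous cells were chosen by a score, the number of genes with a UMI in a set of 5: Ackr1, Selp, Sele, Vwf and Lrg1. Members scored at least 2 on this set and higher than on each of 5 other sets of 5 genes, which stand for arterial, Kdr-type capillary, Rgcc-type capillary, collecting lymphatic and capillary lymphatic ECs. All 30 set genes therefore served the choice, and their levels in the venous cells are given as a description only.

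The study sorted tdTomato-positive cells from back skin, where Cre recombinase driven by the Cdh5 (VE-cadherin) promoter, Cdh5-CreERT2, had switched on the tdTomato reporter after tamoxifen, and asked how the VE-cadherin lineage changes over the hair cycle. All mice carried Cdh5-CreERT2 and tdTomato, and the methods state 200 µg/g tamoxifen on postnatal day (PD) 17. The 4 wild-type (WT) libraries came from mice that also carried Krt14-H2BGFP, a keratinocyte reporter, on a mixed C57BL/6;CD1 background: 2 at PD20, in telogen (the resting stage of the hair follicle), and 2 at PD32, in anagen (the growth stage). The 2 libraries labelled Alk1 KO came from PD25 telogen mice with Alk1 flox/flox on C57BL/6, with no Krt14-H2BGFP. The study used 2 mice per stage or genotype, so that 1 library stands for 1 mouse. Alk1, encoded by Acvrl1, is an endothelial receptor for BMP9 and BMP10. The libraries labelled Alk1 KO thus differed from the WT telogen libraries in strain, age, reporter and dataset as well as in genotype, and these cannot be told apart.

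Veins and venules carry blood back from the capillaries and are the vessels through which leukocytes leave the blood. Their endothelium stores von Willebrand factor (Vwf) and P-selectin (Selp) in granules, displays E-selectin (Sele) after activation, presents chemokines on the atypical receptor Ackr1, and keeps its venous fate through the transcription factor Nr2f2 (COUP-TFII). In skin, postcapillary venules are also the main site of plasma leakage.

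The venous cells numbered 97 and 112 in the WT telogen libraries (S1 and S2), 206 and 574 in the WT anagen libraries, and 86 and 68 in the libraries labelled Alk1 KO. The libraries held between 10615358 and 43317677 UMIs in all. The summed UMIs of the venous cells were 956694, 903544, 1747172, 3975971, 750069 and 518575 in the same order, and their median UMIs per cell lay between 6352.5 and 9356. Anagen S2 thus gave 574 of the 1143 members, and levels are compared over libraries, not over cells. Any pair of libraries shared between 2 and 13 barcodes, and no venous barcode was shared. Doublets were not removed: by Scrublet score, 5, 4, 1, 20, 10 and 1 venous cells were among the top 5% of their libraries. Levels are counts per 1000000 UMIs (CPM): the UMIs of a gene summed over the venous cells of a library, scaled by the sum of all their UMIs.

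The sex-linked genes and Acvrl1 were checked in each library first. Xist, expressed from the inactive X chromosome, was at 974, 0, 0, 0, 872 and 685 CPM in telogen S1 and S2, anagen S1 and S2 and Alk1 KO S1 and S2, and the Y-linked gene Ddx3y at 0, 77.5, 85.9, 90.3, 0 and 0 CPM. Telogen S1 and both libraries labelled Alk1 KO therefore had the Xist pattern, while telogen S2 and both anagen libraries had the Y-linked pattern, so that each comparison is also given below against the single telogen library of matching pattern. Acvrl1 itself was at 128, 98.5, 89.3, 108, 119 and 102 CPM, so that the libraries labelled Alk1 KO did not stand below the WT telogen libraries. These are 3′ transcript tags, which may lie outside the deleted exons, so that this level does not check the labels. A characteristics label of those 2 libraries also reads wild type, against their titles and descriptions.

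The 5 genes of the venous set served the choice of the cells, by detection of a UMI and not by level. Ackr1 was at 1411, 1318, 1497, 1440.2, 737 and 881 CPM in telogen S1 and S2, anagen S1 and S2 and Alk1 KO S1 and S2, against at most 55.3 CPM in any other class of any library. Selp was at 2101, 2140.5, 2067, 2694, 3556 and 3783 CPM in the same order. Both Alk1 KO libraries were thus the lowest for Ackr1 and the highest for Selp. Sele was at 1088, 751, 989.6, 1819, 1171 and 1616 CPM, with telogen S2 lowest and anagen S2 highest. Vwf was at 639.7, 1075, 894, 899.7, 873 and 893 CPM, and the arterial-set cells came next with 246 to 352 CPM. Lrg1, a secreted leucine-rich glycoprotein, was at 2058, 2474, 2781, 3425, 2508 and 2179 CPM. The genes lie on chromosomes 1 (Sele, chr1:164039614-164058487; Selp, chr1:164115264-164150026; Ackr1, chr1:173331886-173333503), 6 (Vwf, chr6:125552948-125686679) and 17 (Lrg1, chr17:56119678-56121946) of GRCm38.p6, the mm10 build.

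Among genes that the score did not use, the venous regulator Nr2f2 and Emcn were high and arterial and lymphatic markers low, while Ephb4 did not set the cells apart. Nr2f2 was at 221, 258, 185, 159, 391 and 370.2 CPM in the 6 libraries, above the arterial-set (4.54 to 69.6 CPM) and both capillary classes (29.8 to 139 and 29.5 to 79.6 CPM) of every library, while the capillary lymphatic cells were higher still (332 to 866 CPM). Emcn (endomucin, a sialomucin of veins and capillaries) was at 643, 774, 765, 906, 1093 and 1215 CPM, higher than in the other blood classes of the same library each time. Gja5, the arterial gap junction protein connexin 40, had 1 UMI in all venous cells, against 97.3 to 235 CPM in the arterial-set cells. Prox1, the lymphatic master regulator, stayed between 7.3 and 42.4 CPM, against 385 to 620.1 CPM in the capillary lymphatic cells. Ephb4, the classical venous receptor for ephrin-B2, was at 58.5 to 119.6 CPM, against 57.4 to 99.5 CPM in the Kdr-type and 93.3 to 159 CPM in the capillary lymphatic cells. Vcam1, a leukocyte adhesion molecule, was at 104 to 192 CPM in the venous and 74.2 to 311 CPM in the arterial-set cells, but at most 7.9 CPM in the Kdr-type cells.

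**Figure D1:**
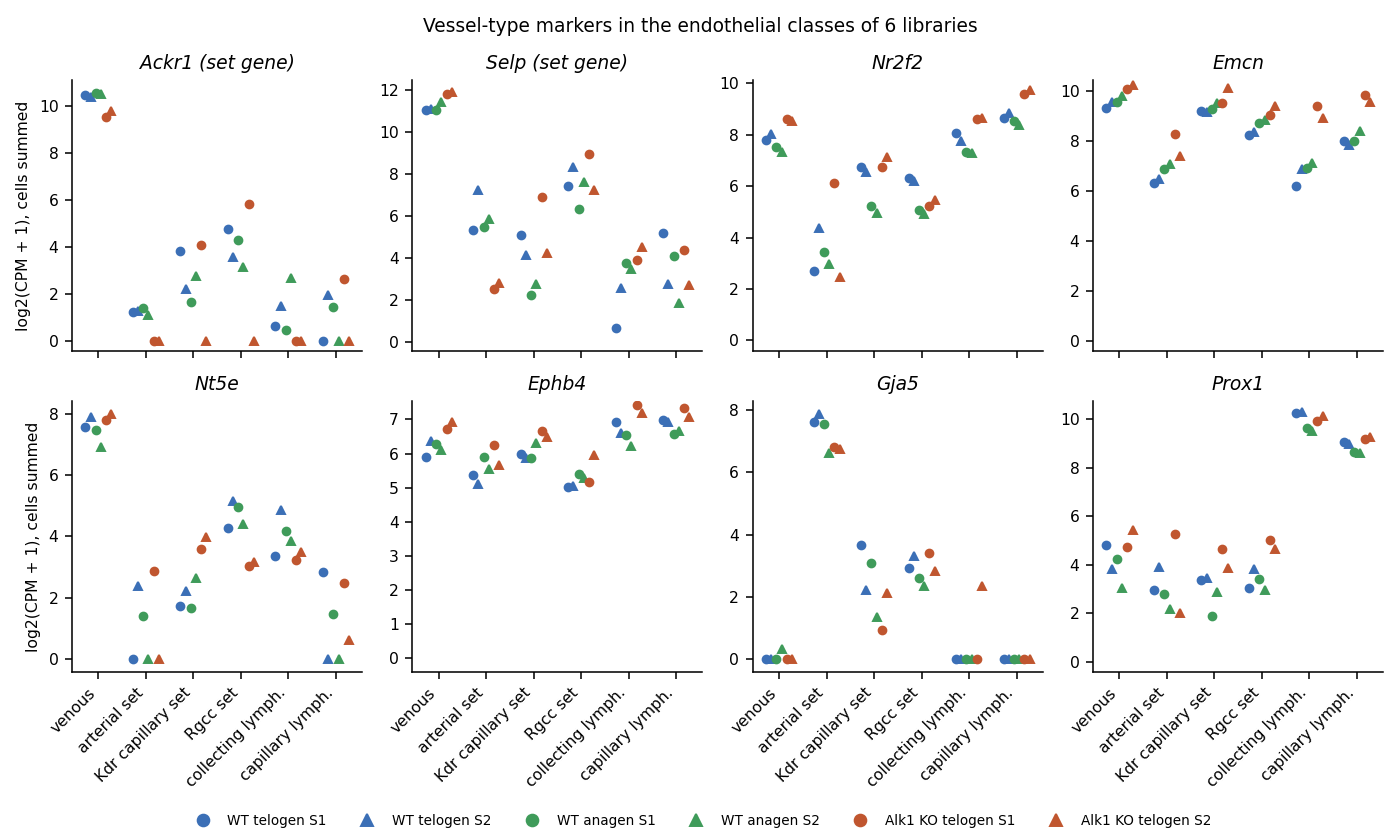
Levels of 8 genes as log2(CPM + 1) of UMIs summed over the cells of each class, 1 point per library (circle S1, triangle S2, colour by group). Ackr1 and Selp were used to choose the venous cells; Nr2f2, Emcn and Nt5e also stand high there in all 6 libraries, Ephb4 does not, and Gja5 and Prox1 mark the arterial and lymphatic classes.

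Among the 2077 genes outside the sets with at least 50 CPM in the venous cells of every library, 88 were higher there than in each of the other 5 classes in all 6 libraries, as a description of cells chosen on the same counts. The clearest was Nt5e (CD73), the enzyme that makes extracellular adenosine. Its venous level was 189, 237, 174, 118, 223 and 255 CPM in the 6 libraries, against 18.2, 34.9, 30.4, 20.2, 11.2 and 14.7 CPM in the next highest class of each. Hdc, which makes histamine, was also among the first 20, at 121, 118, 147, 137, 116 and 181 CPM against 14.7, 31.5, 9.35, 11.3, 25.2 and 29.2 CPM in the next class. Ptgs1 (cyclooxygenase 1), the first enzyme of prostaglandin synthesis, was at 223, 292, 208, 228, 367 and 351 CPM against 44.9, 61.6, 30.6, 26.1, 85.4 and 130.3 CPM. Slco2a1, a prostaglandin transporter, was between 253 and 427 CPM, and the water channel Aqp1 between 1301 and 4016 CPM. The receptors among the 20 were the interleukin 1 receptor Il1r1 (151 to 295 CPM), the insulin receptor Insr (112 to 161 CPM) and the leukaemia inhibitory factor receptor Lifr (202 to 549.6 CPM). The rest were Ehd3, Bace2, Spint2, 2200002D01Rik, Pdia5, Tll1, Myof, Acer3, Rasa4, Csrp2, Lgals3 and Tes.

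The members varied among themselves. All 5 venous genes were detected in 55.7% of them, 4 in 25.5%, 3 in 10.4% and 2 in 8.4%, and the median depth rose with the score, from 4005 UMIs at score 2 to 8748 at score 5. Lrg1 had a UMI in 98.8% of members, Vwf in 94.1%, Selp in 87.1%, Ackr1 in 80.2% and Sele in 68.3%. With each cell thinned to 1500 UMIs, which left out 33 members, the shares were 92.6%, 61.8%, 67.5%, 60.6% and 50.7%. In the 2849 Ptprc-positive, Pecam1-negative immune cells, which were not chosen on these genes, the thinned shares were 1.56%, 1.26%, 0.26%, 0.149% and 0.111%. Those immune cells had a median of 11578 UMIs against 7360 in the venous cells, and some immune cells may express set genes such as Lrg1. Nr2f2 had a UMI in 62.3% of members (24.1% thinned, against 1.34% in the immune cells) and Emcn in 95.2% (68.9% against 0.334%).

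The edge of the class ran towards the capillaries. Of the 1143 members, 797 also had at least 2 genes of another set: 624 of the Rgcc-type set, 340 of the Kdr-type set, 83 of the arterial set, 65 of the collecting lymphatic set and 21 of the capillary lymphatic set. Just inside the rule, 449 members led the next set by 1 gene, with a median of 7768 UMIs. Just outside it, 516 cells with a venous score of at least 2 tied with another set, at a median of 7971 UMIs, and 334 of these tied with the Rgcc-type set and 179 with the Kdr-type set. A further 21 cells had a venous score of 1 and no other set gene, at a median of 1335 UMIs.

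Venous cells made up 15.9% and 18.1% of the blood ECs scored by the rule in the WT telogen libraries, 9.74% and 21.1% in the WT anagen libraries, and 16.3% and 13.1% in the libraries labelled Alk1 KO. The anagen libraries lay on either side of both telogen libraries. The mean share was 17.0% ± 1.57 (SD, n = 2) in telogen and 15.4% ± 8.04 (SD, n = 2) in anagen, a difference within the spread (exact permutation test, two-sided, p = 1). It was 14.7% ± 2.21 (SD, n = 2) in the libraries labelled Alk1 KO (exact permutation test against telogen, two-sided, p = 0.667). With 2 libraries against 2 this exact test cannot go below p = 0.33. Neither difference kept its sign: as a share of all Pecam1-positive, Ptprc-negative cells, anagen minus telogen was 1.99 percentage points in place of -1.55, and under a stricter cell filter (at least 500 genes, under 5% mitochondrial UMIs) Alk1 KO minus WT telogen was 0.712 in place of -2.29.

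Between telogen and anagen, cell-cycle transcripts fell in the venous cells and a set of other genes rose. In all, 34 genes were higher and 47 lower in anagen of 8708 tested (0.390% and 0.540%), by edgeR's quasi-likelihood test at an adjusted p under 0.05 and a fold of at least 1.3, and the 2 anagen libraries lay outside the 2 telogen libraries for all 81, as for 48.0% of all genes tested. The number called depended on the libraries and cells: against telogen S2 alone, the library of the same Ddx3y pattern as anagen, it was 282 (172 higher and 110 lower), without anagen S1 345 and without anagen S2 321, while the stricter cell filter and equal cells and depth per library each gave 17. Of 21 cell-cycle genes tested, 11 fell and none rose, with a median log2 fold change of -2.34 against -0.0036 over all genes tested. Ube2c, the ubiquitin-conjugating enzyme of mitotic exit, was at 117 and 42.1 CPM in telogen and 1.14 and 3.02 CPM in anagen (log2 fold change -4.90 ± 0.57, SE, adjusted p = 0.0077). Cenpf, a kinetochore protein, was at 56.4 and 40.9 CPM in telogen and 1.14 and 4.28 CPM in anagen (log2 fold change -3.77 ± 0.41, SE, adjusted p = 0.00756). Ccnb2 (cyclin B2) was at 50.2 and 36.5 and then 1.14 and 5.28 CPM (log2 fold change -3.34 ± 0.43, SE, adjusted p = 0.0104). In each, both anagen libraries were close to 0 and both telogen libraries well above. Birc5 (survivin) went from 61.7 and 63.1 to 2.29 and 10.8 CPM (log2 fold change -2.87 ± 0.40, SE, adjusted p = 0.0163), and Ccnb1 (cyclin B1) from 20.9 and 13.3 to 1.14 and 1.51 CPM (log2 fold change -3.44 ± 0.52, SE, adjusted p = 0.0223). Under the stricter cell filter the calls of Ube2c, Cenpf and Birc5 were lost, at adjusted p = 0.0556, 0.169 and 0.142. That of Ccnb1 was lost against telogen S2 alone, with log2 fold changes between -3.97 and -2.81 over the alternatives. The other members that fell were Top2a, Pclaf, Cdk1, Tk1, Stmn1 and Hmgb2. Among the 10 largest falls outside this list were the mitotic genes Hmmr, Tpx2, Cdca8 and Prc1 and the DNA methylation cofactor Uhrf1. The calls of Tpx2, Prc1 and Uhrf1 were lost without telogen S2, and those of Hmmr, Cdca8 and Prc1 under the stricter cell filter. Against telogen S2 alone 13 cell-cycle genes fell, and 11 against telogen S1 alone; the lone library is then assumed to vary like the others.

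Promoters of late cell-cycle genes are known for the CHR element, with the letters TTTGAA, and for the CCAAT box. In the 250 bases before the RefSeq start (GRCm38.p6), read on both strands, TTTGAA occurred in 5 and CCAAT in 8 of the 10 fallen cell-cycle genes with a promoter in the table, against 18.3% and 37.5% of the 27018 genes with one. Over the whole list they occurred in 7 and 15 of the 19 genes with a promoter, and CCAAT also in 12 of 17 genes of the clock list. The 150 bases before the start of 3 of the fallen genes are shown, picked because they hold these letters, which stand in capitals (TTTGAA with its complement TTCAAA, and the box CCAAT with its complement ATTGG). Cdk1 (the mitotic kinase) lies at chr10:69352913-69353062, minus strand, Ube2c at chr2:164769779-164769928, plus strand and Ccnb2 at chr9:70421555-70421704, minus strand.
Cdk1: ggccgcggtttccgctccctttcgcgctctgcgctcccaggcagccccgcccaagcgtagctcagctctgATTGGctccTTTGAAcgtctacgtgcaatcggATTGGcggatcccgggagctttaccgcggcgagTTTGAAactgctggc
Ube2c: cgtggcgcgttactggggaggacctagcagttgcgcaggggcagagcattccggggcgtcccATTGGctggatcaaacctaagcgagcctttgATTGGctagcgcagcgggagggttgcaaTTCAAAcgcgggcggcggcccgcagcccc
Ccnb2: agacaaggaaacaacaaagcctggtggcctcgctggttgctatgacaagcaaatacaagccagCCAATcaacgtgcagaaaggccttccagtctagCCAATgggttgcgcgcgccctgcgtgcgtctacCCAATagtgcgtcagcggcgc
Cdk1 and Ube2c hold both motifs in this stretch and Ccnb2 holds only CCAAT, 3 times. A match is a run of letters and was not tested for binding.

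Few cells carried these transcripts. By a definition chosen after the values were seen, venous cells with UMIs of at least 3 of the 6 genes Mki67, Top2a, Cenpf, Ube2c, Birc5 and Pclaf numbered 6 of 97 and 11 of 112 in telogen, 1 of 206 and 5 of 574 in anagen, and 0 of 86 and 0 of 68 in the libraries labelled Alk1 KO. The shares were 6.19% (exact 95% interval 2.3 to 13.0) and 9.82% (5.01 to 16.9) in telogen, and 0.485% (0.0123 to 2.67) and 0.871% (0.283 to 2.02) in anagen. With 3 counts of the total as the limit, the 2 counts of 0 allow shares of up to 3.49% and 4.41%, and their exact 95% intervals reach 4.2% and 5.28%. Both telogen libraries stood above both anagen libraries (8.0% ± 2.57 against 0.678% ± 0.273, SD, n = 2). This is a description with no test, since 5 of the 6 genes were among those called lower at anagen. These intervals cover counting error only. In the telogen libraries, these cells held 334 of 363 and 250 of 277 UMIs of the 6 genes. With cells thinned to 1500 UMIs, 5 of 96 and 9 of 109 telogen cells and 0 of 204 and 3 of 551 anagen cells had at least 2 of the 6 genes. None of the 17 telogen cells was among the 5% with the highest doublet score of its library, and 12 of the 17 had all 5 venous genes. Under the stricter cell filter, 2 of 43 and 4 of 38 telogen cells remained in this class and 3 cell-cycle genes were called; with equal cells and depth per library 0 were. In the Kdr-type capillary cells the same share was 3.54% and 2.94% in telogen and 4.04% and 1.97% in anagen, and in the Rgcc-type cells 2.93% and 2.69%, then 3.95% and 1.93%.

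**Figure D2:**
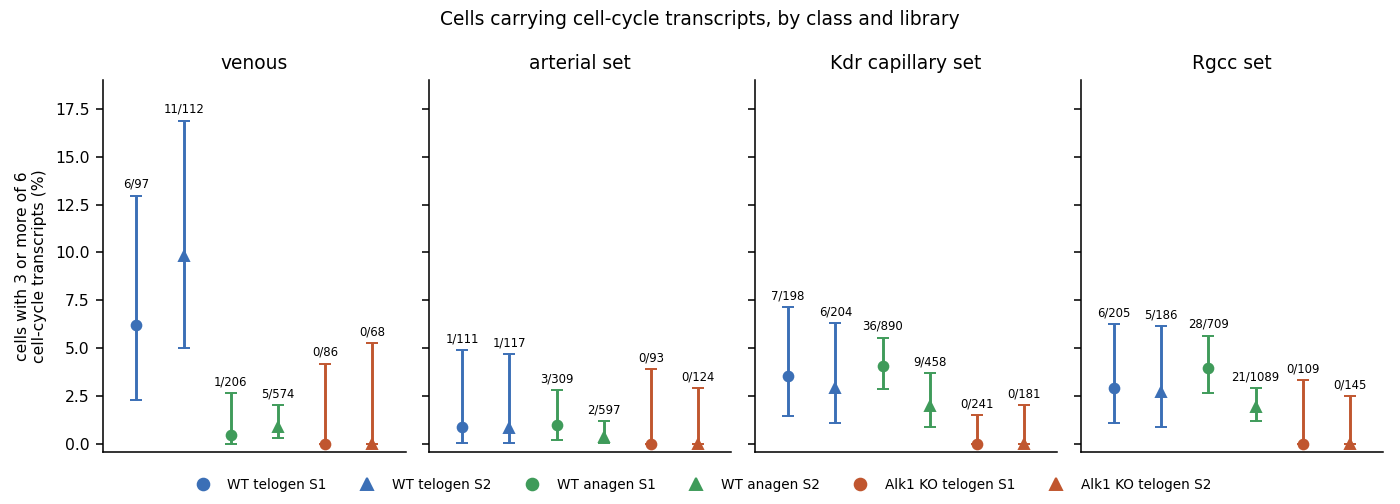
Percent of cells with at least 3 of 6 cell-cycle transcripts in the venous, arterial-set, Kdr-type and Rgcc-type classes, 1 point per library with its exact 95% binomial interval and the cell counts above it. The 2 telogen venous libraries (6/97 and 11/112) lie above the 2 anagen ones (1/206 and 5/574), the capillary classes overlap between stages, and no cell was found in the Alk1 KO libraries.

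The difference between the venous response and that of the other blood ECs passed a test for 4 of the 11 cell-cycle genes that fell, and rested on both telogen libraries. In a fit of the venous response against the mean response of the arterial-set, Kdr-type and Rgcc-type cells, with the library as a block, 18 genes responded more positively and 10 more negatively in the venous cells of 10935 tested (0.256% called). The 10 included 4 of the cell-cycle list (Stmn1, Pclaf, Top2a and Hmgb2). None of the 24 genes singled out for size or list in the stage comparison passed this test: adjusted p was 0.229 for Ube2c, 0.23 for Cenpf, 0.306 for Ccnb2, 0.406 for Birc5 and 0.6 for Ccnb1. Stmn1 (stathmin, a tubulin-binding protein of dividing cells) went from 217 and 186 to 29.2 and 42.8 CPM in the venous cells, from 171 and 119 to 130.2 and 113 CPM in the Kdr-type cells and from 160.3 and 153 to 130.0 and 77.8 CPM in the Rgcc-type cells, a difference of -2.06 ± 0.26 (log2, SE; adjusted p = 0.00191). For Pclaf, a clamp-associated factor of DNA synthesis, the venous response minus that of the others was -2.23 ± 0.29 (log2, SE; adjusted p = 0.00248). Without telogen S1, the fit with telogen S2 of the same Ddx3y pattern as anagen, 2 genes were called more positive and 0 more negative, so that none of the 4 cell-cycle calls was kept, and without telogen S2 there were 3 and 1.

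A matrix gene was among those that responded more positively in the venous cells. Mgp (matrix Gla protein, an inhibitor of BMPs and of calcification) went from 631 and 735 to 991 and 869 CPM in the venous cells and from 268 and 254 to 25 and 45 CPM in the Kdr-type cells, a difference of 1.85 ± 0.32 (log2, SE; adjusted p = 0.0264). It went from 9575 and 10632 to 7429.6 and 10542 CPM in the arterial-set and from 289 and 702 to 173 and 416 CPM in the Rgcc-type cells, so that the Kdr-type difference was the largest of the 3. Mgp was not called in the venous cells by themselves.

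Rises at anagen were smaller. Clu (clusterin, a secreted chaperone) was at 262 and 335 CPM in telogen and 788 and 637 CPM in anagen (log2 fold change 1.39 ± 0.17, SE, adjusted p = 0.00806), and was called in each alternative run. Mt1 (a metallothionein, which binds zinc) was at 255 and 449 and then 885 and 769.6 CPM (log2 fold change 1.37 ± 0.22, SE, adjusted p = 0.025). Ptafr, the receptor for the leakage mediator platelet-activating factor, was at 11.5 and 6.64 and then 38.3 and 29.4 CPM (log2 fold change 1.98 ± 0.35, SE, adjusted p = 0.0349). In these 3 genes the stages did not overlap, and the Ptafr level was low in all libraries. Cxcl12, a chemokine for CXCR4-bearing leukocytes and progenitors, was at 124 and 89.6 and then 204 and 252 CPM (log2 fold change 1.22 ± 0.20, SE, adjusted p = 0.025). Cd14, a co-receptor for bacterial lipopolysaccharide, was at 314 and 393 and then 638 and 739 CPM (log2 fold change 1.10 ± 0.15, SE, adjusted p = 0.0123). Cxcl12 and Cd14 each lost their call in 4 of 15 alternatives, the stricter cell filter, thinned cells and equal depth among them, with adjusted p up to 0.231 and 0.47, Mt1 in 2 of 15 and Ptafr in 2 of 14. The others of the 10 largest rises were Ephx1 (an epoxide hydrolase), Cygb (cytoglobin), Dpm3, Romo1 and Lgmn (the lysosomal protease legumain), with log2 fold changes between 0.97 and 1.36. Ribosomal protein genes gave 14 of the 34 rises, of 83 tested, against 0.390% of all genes higher. Many of these have near-identical pseudogene copies, so that the single genes are uncertain. Their median log2 fold change was 0.38.

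Of 34 matrix genes tested, 2 fell at anagen and none rose, against 0.540% of all genes lower and 0.390% higher. Eln (elastin) was at 844 and 1219.6 CPM in telogen and 264 and 358 CPM in anagen (log2 fold change -1.59 ± 0.19, SE, adjusted p = 0.00806), with the 2 stages far apart, and it was called in each alternative run. Postn (periostin) was at 18.8 and 29.9 and then 6.87 and 4.02 CPM (log2 fold change -2.13 ± 0.40, SE, adjusted p = 0.04997), but lost its call in 6 of 11 alternatives, DESeq2, the replicate block and the fit without telogen S2 among them. Of 22 venous genes outside the set, none was called, and their median log2 fold change was 0.10. None was called either among 22 leukocyte adhesion genes, 21 NF-kB targets, 27 interferon genes, 18 genes of the Alk1 receptor complex and BMP targets, 19 VEGF, angiopoietin and apelin genes, 13 Notch genes or 90 genes of oxidative phosphorylation. Of these 90, 67 had a positive and 23 a negative log2 fold change, with a median of 0.17 against -0.0036 over all genes tested. Over all genes 1226 had an unadjusted p under 0.05, and DESeq2 called 91. Within the Rgcc-type set, which served the choice, Il6 was at 847 and 867 CPM in telogen and 1306 and 1279 CPM in anagen.

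**Figure D3:**
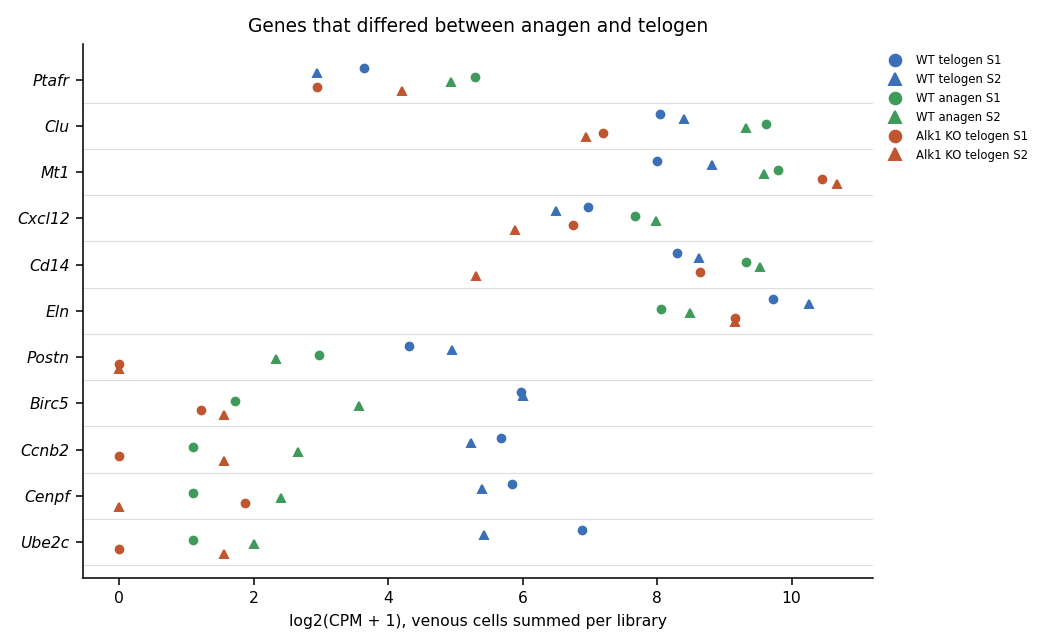
Level of 11 genes in the venous cells as log2(CPM + 1), 1 point per library. Ptafr, Clu, Mt1, Cxcl12 and Cd14 were higher in both anagen libraries than in both telogen libraries; Eln, Postn and 4 cell-cycle genes were lower.

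Marker genes of other cell types were summed in the venous cells of each library. The 19 immune-cell markers summed to 116, 133, 84.1, 20.6, 12 and 44.4 CPM in the venous cells of telogen S1 and S2, anagen S1 and S2 and Alk1 KO S1 and S2. The most abundant was Cd74 (48.1, 24.3, 54.4, 4.53, 0 and 5.79 CPM), and Ptprc, which the rule excludes, and Cx3cr1 were at 0. Of 4 such markers tested, Lyz2 and Pf4, genes of macrophages and platelets, fell at anagen, against 0.540% of all genes lower. Lyz2 went from 16.7 and 25.5 to 3.43 and 1.76 CPM (its log2 fold change was 0.94 with cells thinned to 1500 UMIs before scoring), against a mean of 7048 CPM in the Ptprc-positive cells of the telogen libraries. Pf4 went from 12.5 and 12.2 to 1.14 and 0.252 CPM, on 23 and 3 counts, a ratio of telogen to anagen of 23.6-fold (95% counting interval 7.13 to 123). Both calls were lost without telogen S2, and that of Pf4 also without anagen S2. The other 2 markers tested, Cd74 among them, did not pass, and Cd74 was highest in anagen S1. The part of immune transcripts in the other falls was not tested; 3 of the 47 fallen genes were at least 4 times higher in those immune cells. The 10 fibroblast markers summed to 225, 422, 725, 258, 38.7 and 3.86 CPM, led by Dcn at 43.9, 121, 244, 132, 21.3 and 0 CPM, with none at 0 in all libraries. The 11 pericyte and smooth muscle markers summed to 734, 546, 710.3, 523, 564 and 1215 CPM, led by Tagln (432, 499, 687, 503, 485 and 1211 CPM). The 10 perineurial markers summed to 274, 339, 216, 248, 132 and 137 CPM, led by Itgb4. The 8 Schwann cell and 8 keratinocyte markers summed to at most 7.75 and 11.1 CPM, and the 8 erythroid and platelet markers to 66.9, 50.9, 334, 42, 17.3 and 59.8 CPM, with the haemoglobin gene Hbb-bs at 19.9, 21, 163, 1.51, 8.0 and 40.5 CPM.

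The venous cells of the libraries labelled Alk1 KO differed far more from WT telogen. Of 7589 genes tested, 625 were higher (8.24%) and 802 lower (10.6%) by the same test, and the 2 libraries labelled Alk1 KO lay outside the 2 WT telogen libraries for all 1427, as for 60.5% of all genes tested. DESeq2 called 257 higher and 375 lower. Against telogen S1 alone, the library with the same Xist pattern, 992 genes were called, with 13 cell-cycle falls, 6 clock rises and 13 matrix falls among them. This comparison shares its 2 WT telogen libraries with that of the stages. Other classes also had many calls under the same contrast, 854 in the arterial-set, 2893 in the Kdr-type and 2102 in the Rgcc-type cells.

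The 10 largest rises included Lcn2, Igfbp3 and Fmo2. Lcn2 (lipocalin 2, which binds bacterial siderophores) was at 7.32 and 32.1 CPM in WT telogen and 1009 and 559 CPM in the libraries labelled Alk1 KO (log2 fold change 5.35 ± 0.45, SE, adjusted p = 5.34e-05). Igfbp3, a carrier of insulin-like growth factors, was at 24 and 9.96 and then 420.0 and 463 CPM (log2 fold change 4.68 ± 0.30, SE, adjusted p = 1.24e-05). Fmo2, a flavin monooxygenase, was at 42.9 and 103 and then 836 and 1115 CPM (log2 fold change 3.77 ± 0.32, SE, adjusted p = 5.34e-05). The WT libraries, anagen included, all lay below the 2 Alk1 KO libraries for these 3 genes. Slc15a2, a peptide transporter, had no UMI in WT telogen and 29.3 and 82.9 CPM in the libraries labelled Alk1 KO, at least 31.8-fold higher with 3 counts over the group as the floor. Doc2b, a calcium sensor of exocytosis, had 3 counts in WT telogen and 91 in those libraries, a ratio of 44.5-fold (95% counting interval 14.7 to 219.7). Itih3 and Crispld1 rose as well, and 9530026P05Rik rose by a ratio of 13.2-fold (95% counting interval 4.06 to 68). Timp4, a metalloproteinase inhibitor of the Kdr-type set, was at 7.32 and 12.2 CPM and then 171 and 235 CPM; it served the choice of cells and is given without a test, as is Gpihbp1, the capillary anchor of lipoprotein lipase, at 89.9 and 108 and then 393 and 850.4 CPM.

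The venous genes outside the set were divided. Of 22 tested, 5 rose and 7 fell, against 8.24% and 10.6% of all genes. Nr2f2 was at 221 and 258 CPM in WT telogen and 391 and 370.2 CPM in the libraries labelled Alk1 KO (log2 fold change 0.69 ± 0.18, SE, adjusted p = 0.0184). Emcn (log2 fold change 0.72 ± 0.17, SE, adjusted p = 0.0124), Icam1 (log2 fold change 0.72 ± 0.21, SE, adjusted p = 0.0361), and Il1r1 rose too. Aplnr, the apelin receptor of veins and angiogenic vessels, was at 168 and 222 and then 13.3 and 32.8 CPM (log2 fold change -3.14 ± 0.32, SE, adjusted p = 0.000129). Plvap, which forms the diaphragms of endothelial fenestrae and caveolae, was at 2973 and 2569.9 and then 1331 and 1531 CPM (log2 fold change -0.94 ± 0.17, SE, adjusted p = 0.00292). Neither group of libraries overlapped the other for these genes. Ctsh, Cysltr1 (a receptor for cysteinyl leukotrienes), Bgn, Ehd4 and Prcp were the other falls. Levels of Ackr1 and Selp, which served the choice, are given above, and Ackr1 was detected in 67.4% and 64.7% of the Alk1 KO members against 88.7% and 93.8% of the WT telogen members.

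Leukocyte adhesion and mediator lists held more falls than rises, against 8.24% of all genes higher and 10.6% lower, and the counts of rises lay near that background. Of 20 adhesion genes tested, Icam1 and F11r rose and 6 fell. Selp served the choice and is not counted among the rises. Cd34, a sialomucin that can carry selectin ligands, was at 587 and 604 CPM in WT telogen and 229 and 224 CPM in the libraries labelled Alk1 KO (log2 fold change -1.38 ± 0.18, SE, adjusted p = 0.000523). Icam2 (a ligand of leukocyte integrins) was at 317 and 284 and then 85.3 and 135 CPM (log2 fold change -1.46 ± 0.22, SE, adjusted p = 0.00133). Bst1, St3gal4, Podxl and Jam2 were the other falls, and F11r (junctional adhesion molecule A) rose beside Icam1. Of 20 chemokine and cytokine genes, Csf3, Il1r1 and Il4ra rose, and Cxcl1, Cxcl2, Cxcl9, Ccl2, Ccl7 and Tnfsf10 fell. Ackr1 served the choice and is not counted among the falls. Ccl2 was at 31.4 and 21 CPM in WT telogen and 0 in both Alk1 KO libraries, at least 11.1-fold lower, and Cxcl9 at 58.5 and 74.2 and then 13.3 and 0 CPM. The Ptprc-positive cells of the telogen libraries held a mean of 3311 CPM of Ccl2. Of 20 permeability genes, Cav2 rose and Plvap, Aqp1, Cav1 and Ednrb fell, and Aqp1 was at 3144 and 4016 and then 1301 and 1415 CPM (log2 fold change -1.38 ± 0.16, SE, adjusted p = 0.000329). Of 28 interferon genes, 7 fell and 3 rose. Bst2 (tetherin) was at 447 and 549 and then 97.3 and 160.1 CPM (log2 fold change -1.96 ± 0.23, SE, adjusted p = 0.00033), while Irgm1 was at 88.8 and 50.9 and then 163 and 195 CPM (log2 fold change 1.35 ± 0.26, SE, adjusted p = 0.00481). Of 15 coagulation genes, 1 rose and 2 fell (Anxa2 and Mmrn2), near the background in both directions. The rise was that of Plaur, the urokinase receptor, from 174 and 177 to 312 and 438 CPM (log2 fold change 1.10 ± 0.20, SE, adjusted p = 0.00339). Of 15 MHC genes, H2-Q4 and H2-T23 rose and H2-Q7 and the class II genes H2-Aa, H2-Ab1 and Cd74 fell, where the H2-Q genes are near-identical copies and class II transcripts were far more abundant in the immune cells. Calls lost in 5 or more alternatives were those of H2-Ab1 (8 of 13), H2-Aa (6 of 13), St3gal4 and Cav2 (6 of 15 each) and Mmrn2 (5 of 15), among the genes of this paragraph tested for it.

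Genes of the clock list rose or did not pass the test. Of 15 tested, 9 rose and none fell, against 8.24% of all genes, with a median log2 fold change of 1.75 against 0.0078 over all genes tested. Tef, a PAR-domain transcription factor under clock control, was at 5.23 and 13.3 CPM in WT telogen and 69.3 and 59.8 CPM in the libraries labelled Alk1 KO (log2 fold change 2.82 ± 0.40, SE, adjusted p = 0.000985). Nr1d1 (REV-ERB alpha, a clock repressor) was at 10.5 and 8.85 and then 52 and 50.1 CPM (log2 fold change 2.40 ± 0.38, SE, adjusted p = 0.0015). Dbp, the D-box binding partner of Tef, was at 4.18 and 3.32 and then 20.0 and 19.3 CPM (log2 fold change 2.36 ± 0.55, SE, adjusted p = 0.0128), but lost its call in 5 of 13 alternatives, DESeq2 and the fits without telogen S1, telogen S2 or Alk1 KO S1 among them. All 4 WT libraries lay below both Alk1 KO libraries for Tef and Nr1d1. Hlf, the remaining PAR factor, had 2 counts in WT telogen and 36 in the libraries labelled Alk1 KO, a ratio of 26.4-fold (95% counting interval 6.80 to 226). Per3, Cry2 and Nr1d2 rose as well. The remaining 2 of the 9 rises were Tsc22d3 and Fkbp5, which the list holds but which are glucocorticoid-responsive genes and not core clock genes. Tsc22d3 was the most abundant gene of the list, at 136 ± 82.3 and then 548 ± 3.46 CPM (mean ± SD, n = 2). DESeq2 and the stricter cell filter each called 5 of the list higher, and no filter on low counts and equal cells and depth per library each 2. The E-box read by the clock activators, CACGTG (its own complement), occurred in the 250 bases before the start of 2 of the 9 genes that rose, Tef and Fkbp5, against 6.86% of all genes. It occurred in 6 of the 17 genes of the clock list with a promoter. The stretch of Tef is shown because it holds one, at chr15:81802523-81802672, plus strand of GRCm38.p6, with the E-box in capitals.
Tef: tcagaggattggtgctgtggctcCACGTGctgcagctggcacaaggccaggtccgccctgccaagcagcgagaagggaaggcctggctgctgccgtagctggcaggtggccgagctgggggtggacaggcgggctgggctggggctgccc
The D-box TTANGTAA, read on both strands, occurred in 1 of the 9, Per3, against 2.44% of all genes.

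Of 19 genes of the Alk1 receptor complex and BMP targets tested, 1 rose and none fell, near the background of 8.24% higher and 10.6% lower over all genes. This was Bmp4, a BMP ligand, from 27.2 and 42.1 to 123 and 100.3 CPM (log2 fold change 1.72 ± 0.26, SE, adjusted p = 0.00131), with both anagen libraries in between (45.2 and 55.6 CPM). The response did not pass the test against the other blood ECs (a difference of 0.76 ± 0.40, log2, SE; adjusted p = 0.519). Direct targets did not pass. Id1, an inhibitor of differentiation, was at 129.6 and 230.2 CPM in WT telogen and 213 and 235 CPM in the libraries labelled Alk1 KO, and Smad7, an inhibitory Smad, at 63.8 and 40.9 and then 89.3 and 92.6 CPM. The co-receptor Eng (endoglin) was at 725 and 879.9 and then 472 and 638 CPM. Of 12 Notch genes, Jag1, Jag2 and Lfng rose and none fell. Of 28 endothelial transcription factors, 7 rose and 2 fell (Meox1 and Meox2), the falls near the background, and Erg, a factor of all endothelium, was at 55.4 and 60.9 and then 117 and 145 CPM (log2 fold change 1.18 ± 0.22, SE, adjusted p = 0.00362). Of 18 VEGF, angiopoietin and apelin genes, 1 rose (Vegfa) and 3 fell (Nrp1, Vegfc and Aplnr), near the background. The call of Vegfa was lost in 7 of 14 alternatives, each removal of 1 library included, that of Nrp1 in 7 of 15 and that of Jag1 in 5 of 14, without telogen S1 among them.

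**Figure D4:**
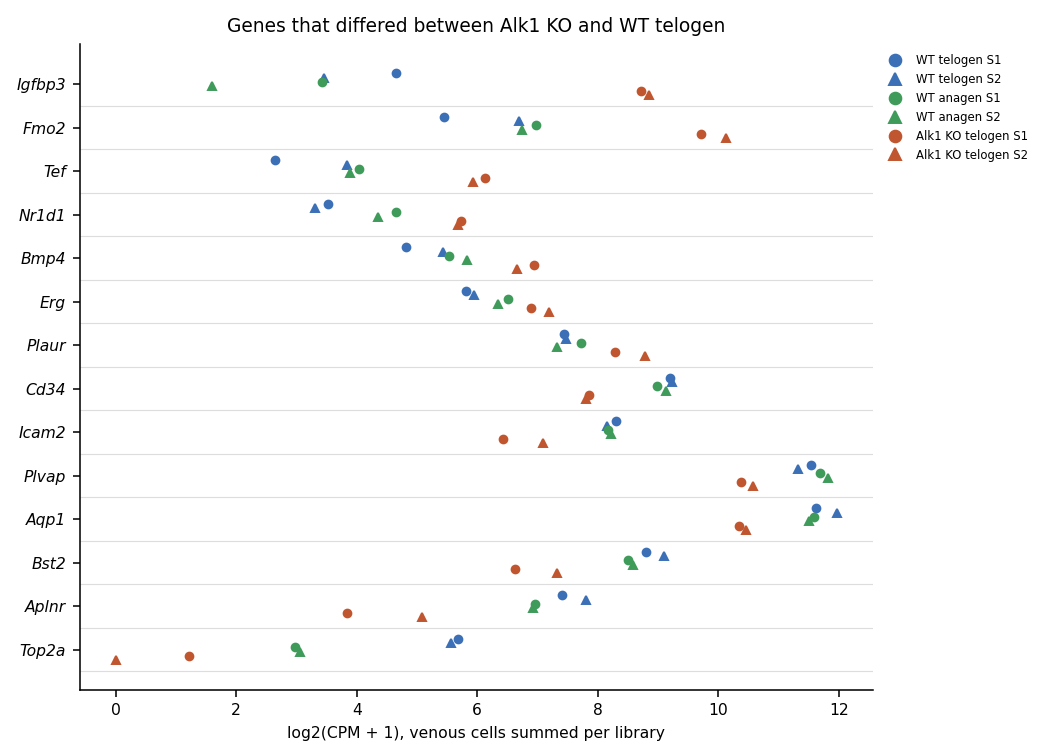
Level of 14 genes in the venous cells as log2(CPM + 1), 1 point per library. From Igfbp3 to Plaur both Alk1 KO libraries lie above both WT telogen libraries, and from Cd34 to Top2a below them; the WT anagen libraries are shown for reference.

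The matrix and cell-cycle lists held more falls than rises. Of 35 matrix genes tested, 15 fell, against 10.6% of all genes lower and 8.24% higher, and the median log2 fold change was -0.60. The basement membrane genes Col4a1, Col4a2, Col15a1 and Col18a1, the elastic fibre genes Eln, Fbln2 and Fbln5, and Sparc, Fn1 and Bgn were among the falls. Fbln5 was at 338 and 522 and then 121 and 156 CPM (log2 fold change -1.62 ± 0.23, SE, adjusted p = 0.000985). Mgp, Emilin1, Timp3 and Ccn2 rose, and Timp4, which served the choice, is not counted among the rises. The interstitial collagen Col3a1 was at 97.2 and 93 CPM in WT telogen and had no UMI in the libraries labelled Alk1 KO, at least 40.2-fold lower. For Col1a1 the ratio of WT to Alk1 KO was 60.0-fold (95% counting interval 10.5 to 2397), on 1 count. All 5 fibroblast markers tested (Col1a1, Col1a2, Col3a1, Dcn and Mfap5) fell, as did 3 of 5 perineurial markers (Itgb4, Cldn1 and Sfrp5, the last at least 22.7-fold) and 3 of 4 immune markers (Lyz2, Pf4 and Cd74). Of 3 pericyte and smooth muscle markers only Acta2 fell, while Tagln, the most abundant, was at 432 and 499 and then 485 and 1211 CPM and did not pass, and of 2 erythroid and platelet markers only Itga2b fell. Acta2 was at 128.6 CPM in telogen S1 and 23.2 CPM in telogen S2, and at 2.67 and 1.93 CPM in the libraries labelled Alk1 KO. The calls of Acta2 and Itga2b were lost without telogen S1. The part of fibroblast, perineurial and immune transcripts in these falls was not tested; 29 of the 802 fallen genes were at least 4 times higher in the immune cells of the telogen libraries. Of 19 cell-cycle genes, 15 fell, and 1, the cell-cycle inhibitor Cdkn1a, rose. The cell-cycle falls numbered 8 under the stricter cell filter, 7 with no filter on low counts and 0 with equal cells and depth per library, and the matrix falls 4 and 6 under the last 2 of these. Top2a had 90 counts in WT telogen and 1 in the libraries labelled Alk1 KO, a ratio of 61.4-fold (95% counting interval 10.7 to 2451), and Ccnb1 was at least 7.27-fold lower. Mmp15, Nrgn, Cdca8, Prc1, Cenpe, Vtn and Postn were also at 0 in both libraries, with bounds between 10.2-fold and 15.2-fold.

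Of 86 genes of oxidative phosphorylation tested, 46 fell and 2 rose, against 10.6% of all genes lower and 8.24% higher, with a median log2 fold change of -0.71. Ndufs6, a subunit of complex I, was at 151 and 124 CPM in WT telogen and 42.7 and 46.3 CPM in the libraries labelled Alk1 KO (log2 fold change -1.62 ± 0.23, SE, adjusted p = 0.000998). Of 13 mitochondrially encoded genes, 6 fell and 2 rose, and the median mitochondrial share of the venous cells was 5.42% and 5.66% in WT telogen and 4.1% and 3.34% in those libraries. Of 18 glycolysis and hypoxia genes, 5 rose and 5 fell, with a median log2 fold change of -0.11. Among the rises, Bnip3, a mitophagy receptor, went from 18.8 and 14.4 to 78.7 and 81 CPM (log2 fold change 2.26 ± 0.30, SE, adjusted p = 0.000654), and Ddit4, an inhibitor of mTORC1, from 71.1 and 156 to 503 and 399 CPM (log2 fold change 2.02 ± 0.29, SE, adjusted p = 0.000984), beside Pdk1, Pfkfb3 and Vegfa. The falls were the glycolytic enzymes Pfkl, Tpi1, Pgam1, Pkm and Ldha. Of 83 ribosomal protein genes, 30 rose and 1 fell. NF-kB targets and immediate-early genes had few calls: Sod2 and Map3k8 rose of 21, and Egr1 rose of 29, all near or below the background. The call of Sod2 was lost in 6 of 15 alternatives, the removal of either telogen library among them, and that of Egr1 in 7 of 15.

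**Figure D5:**
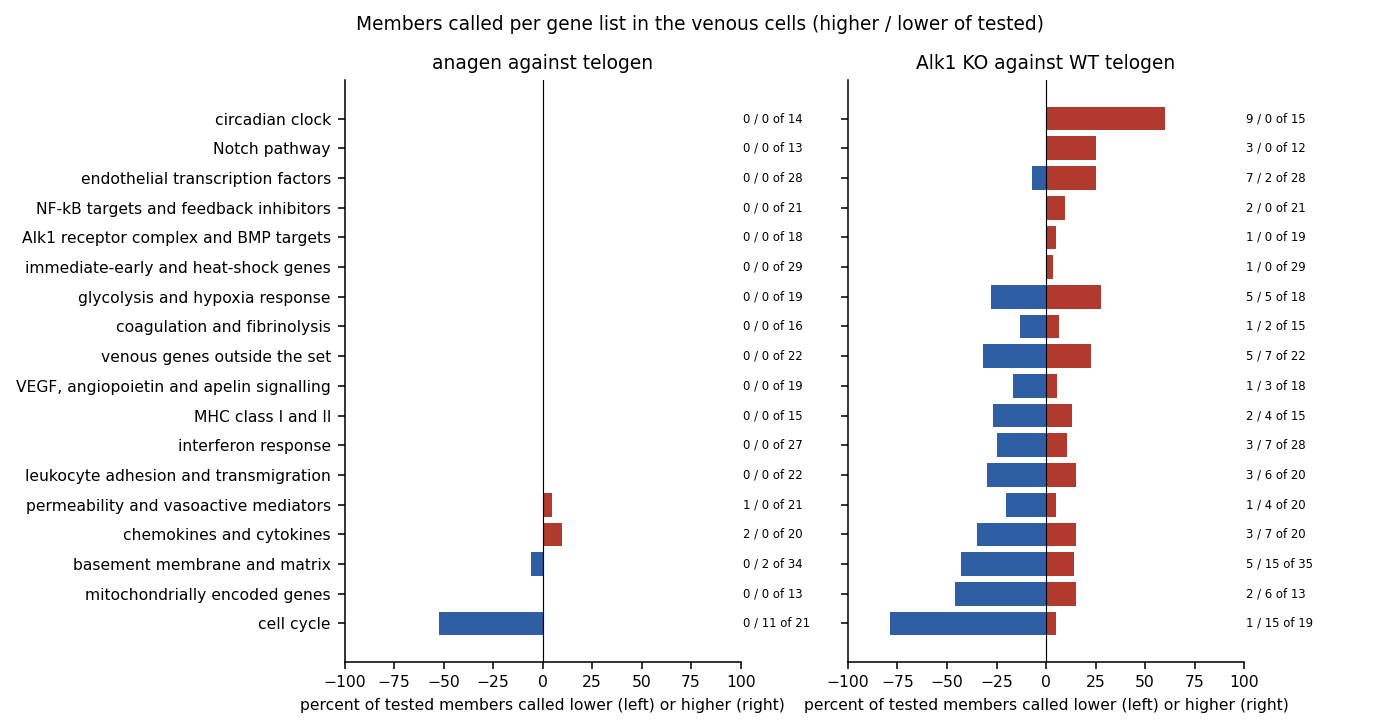
Percent of tested members of 18 gene lists called higher (right, red) or lower (left, blue) in the venous cells, with the counts beside each bar, for anagen against telogen and for Alk1 KO against WT telogen. Any genes of the rule's sets in these counts are a description only. The cell cycle list leads the falls in both, 11 of 21 and 15 of 19. The clock list leads the rises in the second, 9 of 15, with the glucocorticoid-responsive genes Tsc22d3 and Fkbp5 among them. Both panels share the WT telogen libraries.

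Few of these responses passed a test against those of the other blood ECs: 53 genes responded more positively and 43 more negatively in the venous cells, of 9620 tested (0.998%). Of the 85 genes singled out for size or list in this comparison and outside the sets, 5 passed this test (Igfbp3, Crispld1, Fbln5, Ednrb and Aqp1). The difference was negative for Fbln5 (-1.25 ± 0.22, log2, SE) and Ednrb (-2.05 ± 0.45). It was positive for Aqp1 (1.03 ± 0.22, adjusted p = 0.0253), so that Aqp1 fell less in the venous cells than in the mean of the other blood classes. Igfbp3 went from 24 and 9.96 to 420.0 and 463 CPM in the venous cells and from 254 and 220.0 to 1063 and 1374 CPM in the arterial-set cells, a difference of 2.39 ± 0.34 (log2, SE; adjusted p = 0.000954). Crispld1, a secreted cysteine-rich protein, went from 3.14 and 3.32 to 34.7 and 46.3 CPM in the venous cells and from 23.8 and 30.1 to 16.8 and 16.1 CPM in the Rgcc-type cells, a difference of 4.52 ± 0.53 (log2, SE; adjusted p = 8.89e-05). Cdo1 (cysteine dioxygenase, the first step of taurine synthesis) went from 3.14 and 5.53 to 50.7 and 23.1 CPM in the venous cells and from 2.76 and 11 to 1.20 and 11.1 CPM in the Rgcc-type cells, a difference of 3.83 ± 0.73 (log2, SE; adjusted p = 0.013). Slc6a6, the taurine transporter, named here after its values were seen, went from 73.2 and 58.7 to 391 and 389.5 CPM in the venous cells, a difference of 2.73 ± 0.19 (log2, SE; adjusted p = 3.39e-08). In the classes it was tested against, Slc6a6 went from 528 and 454 to 406 and 392 CPM (arterial-set), from 221 and 240.5 to 237 and 253 CPM (Kdr-type) and from 564 and 579 to 464 and 522 CPM (Rgcc-type). In the other direction, Ccn3, a matricellular protein, went from 82.6 and 52 to 92 and 55.9 CPM in the venous cells and from 5.42 and 6.40 to 543 and 209 CPM in the Kdr-type cells, a difference of -3.28 ± 0.38 (log2, SE; adjusted p = 8.89e-05). Leaving out 1 library gave between 26 and 121 calls, with 26 without telogen S2, 34 without telogen S1 and 69 without Alk1 KO S2.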

How the data were processed

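Single-cell libraries (10x Genomics 3′ v3) of tdTomato-positive mouse back skin cells were used as deposited, as UMI counts per gene and barcode. The authors made these counts before deposit. The submitters' processing notes name Cell Ranger 6.0.1, Seurat 4.0 and mm10, and every deposited barcode had at least 500 UMIs. The members and gene lists were chosen with earlier results of these data known.

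Cells were filtered and scored as the report describes (Python 3.11.15, scanpy 1.11.5), and raw UMIs were summed over the venous cells of each library. A library is 1 mouse per the methods, and cells were not treated as replicates. Groups were compared with edgeR 4.0.16 (TMM scaling, filterByExpr, quasi-likelihood test, Benjamini-Hochberg adjusted p under 0.05 over all genes tested and a fold of at least 1.3), in fits of the 4 libraries compared, with no covariate. The standard errors (SE) were derived from the test, as the absolute log2 value divided by the square root of its F statistic. Differences in response between classes were fitted with the library as a block. Shares were compared by exact permutation tests. Scripts were tested on simulated data, where the stage fit made more false calls than the adjusted p allows. DESeq2 1.42.0, other filters, scalings and cell choices and the removal of each library were run as alternatives.

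The genes named were the 10 largest rises and falls per comparison among genes called with a mean of at least 10 CPM and no overlap between libraries, up to 4 called members of each list by size, and the 5 largest differences each way per response fit. Ribosomal, mitochondrial and predicted genes took no place among these 10. All venous genes outside the set could be named. 1 gene that these rules name is not reported here, though it stays in the counts. Other called list members are named by list, and the cells with cell-cycle transcripts, the promoters shown, Slc6a6, Id1, Id3, Smad7, Tmem100 and Eng were chosen after their values were seen.

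Genes without a UMI in 1 group are given as bounds against 3 counts over the group. Promoters are from RefSeq (GRCm38.p6). Intervals are exact 95% intervals.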

Additional observations from a re-analysis of the deposited data

Results flagged for a closer look

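The genes below are given because their response in the venous cells differed, by edgeR's quasi-likelihood test of the difference itself, from the mean response of the arterial-set, Kdr-type and Rgcc-type cells. They are among the 5 largest each way in each comparison among genes called with a mean of at least 10 CPM in the venous cells.

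From telogen to anagen, these genes responded more positively in the venous cells, on the log2 scale: Inpp4b (a phosphoinositide phosphatase) by 3.23, Prkg1 (the cGMP-dependent kinase) by 2.5, Anpep (aminopeptidase N) by 2.37 and Mgp by 1.85. Inpp4b went from 8.36 and 12.2 to 10.3 and 9.56 CPM in the venous cells and from 22.5 and 22.9 to 3.41 and 3.66 CPM in the Kdr-type cells. The response was more negative for Hells (a chromatin remodeller of dividing cells), with a difference of -2.52, Top2a with -2.29, Pclaf with -2.23, Stmn1 with -2.06 and Gmnn (geminin, an inhibitor of DNA replication licensing) with -1.91. All of these more negative calls were lost without telogen S1, where telogen S2 was assumed to vary like the others.

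From WT telogen to the libraries labelled Alk1 KO, the response was more positive in the venous cells for Col6a3 (a collagen VI chain) by 6.32, Aoc3 (vascular adhesion protein 1) by 4.74, Crispld1 by 4.52, Fcer1g (an Fc receptor chain) by 4.04 and Cdo1 by 3.83. Aoc3 went from 10.5 and 3.32 to 21.3 and 11.6 CPM in the venous cells and from 10.9 and 22.4 to 0 and 0 CPM in the arterial-set cells. Where a class is at 0, as here, the fitted difference depends on the prior count and bounds nothing. Fcer1g is also abundant in immune cells, and their part in its value was not tested. The response was more negative for Comp (a cartilage matrix protein), with a difference of -5.46, Pclaf with -3.54, Ccn3 with -3.28, Gpr160 with -3.23 and Trf (transferrin) with -3.06. Both comparisons use the same WT telogen libraries.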

How the results depend on the processing

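Of the alternatives to the cells, filters, scaling and tool, those that moved a count or a difference in share by over 1.5 times were these. With a stricter cell filter (500 or more genes, less than 5% of UMIs mitochondrial), 17 genes were called between stages and 853 in the libraries labelled Alk1 KO, cell-cycle falls numbered 3 and 8, clock rises 5, and the Alk1 KO difference in the venous share was 0.712 percentage points. With equal cells and depth per library, which left 1760 and 1874 genes to test, 17 and 244 genes were called, 0 and 0 cell-cycle falls, 2 clock rises and 6 matrix falls. The stage difference in the venous share (-1.55 points) was -0.124 under the stricter filter and 1.99 as a share of all Pecam1-positive, Ptprc-negative cells, and the Alk1 KO difference (-2.29) was -4.01 with thinned cells and -1.31 with a venous score of at least 3. With no filter on low counts, 188 genes were called in the libraries labelled Alk1 KO (7 cell-cycle falls, 2 clock rises and 4 matrix falls), and 227 and 255 in the stage and Alk1 KO response fits. DESeq2 called 632 genes for Alk1 KO, 5 of them clock rises. For the counts of list members, the alternatives were added after seeing the data. Leaving out 1 library gave 98 to 345 calls between stages, 992 to 1599 for Alk1 KO, 2 to 50 and 26 to 121 in the response fits, differences in share of -7.24 to 4.13 and -3.86 to -0.728 points, 11 to 15 and 13 to 16 cell-cycle falls, 6 to 8 clock rises and 13 to 16 matrix falls. The lone library of a group was then assumed to vary like the others. The stage fall of Lyz2 turned to 0.94 with cells thinned before scoring. Of the genes named, 3 of 24 and 17 of 85 kept their call in each alternative that gave a value. The causes were not tested.

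The libraries shared only a replicate number. Deviations of same-numbered libraries correlated at -0.063 (stage) and 0.087 (Alk1 KO) over 2965 genes, and the replicate block gave 95 and 1653 calls. With 2 libraries a group and 68 to 574 venous cells each, genes at a few UMIs were not testable, and Alk1 KO is confounded with strain, age and dataset.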

Other observations

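Genes of the other sets of the rule also differed in level within the venous cells of the libraries labelled Alk1 KO, and are given as values because they served the choice. Rgcc was at 86.8 and 58.7 CPM in WT telogen and 195 and 152 CPM in those libraries, Cd300lg at 212 and 136 and then 309 and 260.3 CPM, and Stmn2 at 109 and 109.6 and then 52 and 23.1 CPM. Of the capillary genes outside the rule, Cd36, a fatty acid transporter, rose (log2 fold change 0.70 ± 0.16, SE, adjusted p = 0.0111) and Fabp4, a fatty acid binding protein, fell (log2 fold change -0.69 ± 0.17, SE, adjusted p = 0.014).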
